A study of Mus musculus with 30 samples.

Results

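The genes described here are those that repair platinum adducts and crosslinks in DNA. They were chosen by name, as 44 symbols for Fanconi anaemia proteins, homologous recombination factors, nucleases and helicases, nucleotide excision repair proteins, translesion polymerases and mismatch repair proteins. On the array, 43 of the 44 had a row with that symbol alone, among 19938 genes in all, and Xrcc2 was not analysed here. The study followed RNA in tumours of EL4, a lymphoma line of mouse T cells, placed under the flank skin of animals that had received a cocktail of antibiotics for 3 weeks before the cells were injected, or of animals on water. The titles of all 30 samples carry the label WT, and the labels say no more of strain or genotype. Per the labels' protocol, oxaliplatin went into the peritoneum at 10 mg per kg of body weight, 7 days after the cells. The 6 groups of 5 arrays each were antibiotic tumours at 0, 6 and 18 h and water tumours at 0, 6 and 18 h after the drug. No tumours left without oxaliplatin for 6 or 18 h were part of the design, so time since injection and drug effect cannot be told apart. The labels do not say that each array came from its own mouse, and the tests rest on the spread between arrays, which may be technical. The submitters' sample numbers run in blocks by group, so order of handling and group cannot be told apart either. The tumours were taken whole, with the host's cells in them, and in such bulk samples fewer cells of a type and less RNA per cell cannot be told apart.

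Oxaliplatin binds purine bases in DNA and joins neighbouring bases, and less often opposite strands. Adducts within a strand are cut out by nucleotide excision repair, in which Xpc with Ddb1 and Ddb2, or the stalled polymerase with Ercc6 and Ercc8, finds the damage, the helicases Ercc2 and Ercc3 open the strands, Xpa checks the site, and the nucleases Ercc5 and Ercc1 with Ercc4 cut on either side. Crosslinks between strands stop replication forks and need the Fanconi anaemia proteins, incision by nucleases held on Slx4, bypass by translesion polymerases and repair of the broken arm by recombination. Many of these genes are expressed with the cell cycle. In human cells p53 is known to raise a few of them, Ddb2, Xpc and Polh among the best described. Whether it does so in these mouse tumours was not tested. EL4 itself is a lymphoid line, and its T cell markers were present.

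All values are log2 expression as the submitters deposited them, so that a difference of 1 is a 2-fold change, and arrays are numbered 1 to 5 within each group in the order of their accession, with no pairing. Tests are limma's moderated test over the 30 arrays, with Benjamini-Hochberg adjusted p-values over all 19938 genes, and the threshold was an adjusted p of 0.05. The array medians ran from 7.25 to 7.37. The T cell gene Thy1 was present throughout, with means of 11.91 in antibiotic tumours at 18 h and 11.98 in water tumours at 0 h. Array 3 of the antibiotic group at 6 h stood apart: the interquartile range of its values was 2.79, against 2.96 to 3.26 on the other 29 arrays, and its mean over the 43 repair genes was the lowest of all, at -0.18 relative to each gene's mean. Array 1 of the antibiotic group and array 1 of the water group at 6 h carried skin genes, with keratinocyte marker means of 2.37 and 2.49, and array 5 of the antibiotic group at 6 h carried muscle genes, with a mean of 1.57. Counts of repair genes past the threshold at 6 h are therefore also given without these arrays. Signs of differences, unadjusted counts and the companion and marker lists at 6 h are given with all arrays only. Counts from fits with arrays left out carry no share of all genes. They do not show whether the repair genes or the whole array gained or lost calls.

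The promoters of the genes that carried the main changes are shown so that the letters near their start sites can be read beside their values. They are RefSeq sequences of build GRCm38.p6, read in the direction of the gene, from 250 bases before the start to 50 after it, for Ercc5 (chr1:44147494-44147793, plus strand), Ercc1 (chr7:19344821-19345120, plus strand), Rad51c (chr11:87404905-87405204, minus strand), Rmi1 (chr13:58402347-58402646, plus strand) and Brca1 (chr11:101551906-101552205, minus strand). Capitals mark the CCAAT word bound by NF-Y, the TTTGAA word known as the CHR, and 8-letter words bound by E2F, on either strand. Where RefSeq gave 2 starts, as for Rad51c and Rmi1, 1 is shown. The Rmi1 window not shown holds no E2F word.
Ercc5: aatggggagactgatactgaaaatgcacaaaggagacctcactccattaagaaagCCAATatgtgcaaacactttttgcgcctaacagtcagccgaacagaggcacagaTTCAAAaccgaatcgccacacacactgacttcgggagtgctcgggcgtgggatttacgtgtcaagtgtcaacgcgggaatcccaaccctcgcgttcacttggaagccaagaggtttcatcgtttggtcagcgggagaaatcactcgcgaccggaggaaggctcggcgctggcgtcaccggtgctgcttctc
Ercc1: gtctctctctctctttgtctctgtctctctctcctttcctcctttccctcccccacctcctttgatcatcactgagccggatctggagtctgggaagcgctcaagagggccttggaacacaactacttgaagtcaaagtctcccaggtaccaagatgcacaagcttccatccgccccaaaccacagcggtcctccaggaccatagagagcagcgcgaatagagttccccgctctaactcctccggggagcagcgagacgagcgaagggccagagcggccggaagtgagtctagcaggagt
Rad51c: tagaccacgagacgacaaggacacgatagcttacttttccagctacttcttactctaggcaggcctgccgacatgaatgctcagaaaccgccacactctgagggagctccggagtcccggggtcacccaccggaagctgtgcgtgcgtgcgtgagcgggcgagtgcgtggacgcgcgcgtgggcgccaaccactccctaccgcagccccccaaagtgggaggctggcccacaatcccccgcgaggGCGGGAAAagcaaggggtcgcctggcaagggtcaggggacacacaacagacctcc
Rmi1: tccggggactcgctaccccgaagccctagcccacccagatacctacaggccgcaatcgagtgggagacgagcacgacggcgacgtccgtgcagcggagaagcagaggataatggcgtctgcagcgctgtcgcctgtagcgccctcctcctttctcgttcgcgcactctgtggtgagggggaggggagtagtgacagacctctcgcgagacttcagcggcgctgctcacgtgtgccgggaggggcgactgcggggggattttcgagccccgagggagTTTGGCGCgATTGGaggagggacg
Brca1: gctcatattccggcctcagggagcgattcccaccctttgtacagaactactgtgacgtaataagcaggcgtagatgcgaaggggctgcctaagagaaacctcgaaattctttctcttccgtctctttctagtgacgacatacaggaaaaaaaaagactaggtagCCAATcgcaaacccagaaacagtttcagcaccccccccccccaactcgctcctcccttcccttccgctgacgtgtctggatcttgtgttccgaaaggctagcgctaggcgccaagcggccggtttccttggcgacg

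In water mice, 5 of the 43 repair genes were higher 6 h after oxaliplatin than at 0 h and 1 was lower, whereas 0.697% of all genes tested were called higher and 0.416% lower. The genes that rose were the excision nuclease Ercc5, the translesion polymerase Rev1, the nuclease scaffold Slx4, the recombination gene Rad51d and the recombination motor Rad54l, and the one that fell was Ercc1, the partner of the nuclease Ercc4. Of the 43 genes, 33 had a positive difference, or 76.7%, against 46.7% of all genes. The median difference was 0.07 log2 for the repair genes and -0.01 for all genes. Without adjustment, 17 of the 43 had a p under 0.05, against 10.6% of all genes. Cell type markers moved with this comparison as well, though none passed. All 9 T cell markers were lower in value (median -0.09 log2), as were all 5 muscle markers (-0.51). All 7 fibroblast and all 6 keratinocyte markers were higher in value (0.16 and 0.51), and the other marker lists were mixed in sign. The part of these markers in the repair genes' changes was not tested.

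Ercc5, which cuts the damaged strand on one side of the lesion, read 9.68, 9.53, 9.62, 9.53 and 9.65 on the 5 water arrays at 6 h, against 9.02, 8.90, 8.99, 8.99 and 8.89 at 0 h. All 5 arrays at 6 h lay above all 5 at 0 h. The difference was 0.64 ± 0.096 log2 (SE, n = 5 arrays a group), a 1.56-fold change, with an adjusted p of 0.000654. Rev1, which inserts a base opposite damage and holds the other bypass polymerases, read 9.88, 9.83, 9.81, 9.81 and 9.93 at 6 h, against 9.57, 9.40, 9.61, 9.64 and 9.51 at 0 h. Its groups did not overlap either, and it rose by 0.31 ± 0.058 log2 (adjusted p = 0.00528). Rad51d read 8.67, 8.57, 8.64, 8.62 and 8.60 at 6 h, against 8.27, 8.34, 8.49, 8.28 and 8.30 at 0 h. The lowest array at 6 h was above the highest at 0 h, with a difference of 0.28 ± 0.059 log2 (adjusted p = 0.0109). Slx4 read 8.91, 8.89, 8.88, 8.88 and 8.89 at 6 h, against 8.79, 8.63, 8.66, 8.70 and 8.58 at 0 h. The 5 arrays at 6 h lay close together and above every array at 0 h, and the gene rose by 0.22 ± 0.045 log2 (adjusted p = 0.00941). Rad54l read 10.20, 10.11, 10.11, 10.14 and 10.21 at 6 h, against 9.95, 9.89, 9.99, 10.03 and 9.98 at 0 h. These groups were also apart, but the rise of 0.19 ± 0.046 log2 passed narrowly (adjusted p = 0.0358) and held in 1 of the 10 fits that left out an array, with adjusted p-values from 0.0391 to 0.125.

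Ercc1 moved the other way. It read 8.57, 8.73, 8.61, 8.60 and 8.74 on the water arrays at 6 h, against 8.88, 9.06, 8.92, 8.88 and 9.00 at 0 h. All 5 arrays at 6 h lay below all 5 at 0 h, and the gene fell by 0.30 log2 (SE 0.050, adjusted p = 0.00212). Its partner Ercc4 differed by 0.08 ± 0.060 log2 with an adjusted p of 0.728, so a change was called for 1 subunit of this nuclease at 6 h. Array 1 of the water group at 6 h, the array with skin genes, had the highest Ercc5 and the lowest Ercc1 of its group. Without it and the other arrays with skin or muscle genes, 4 repair genes were called higher and 1 lower.

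**Figure D1:**
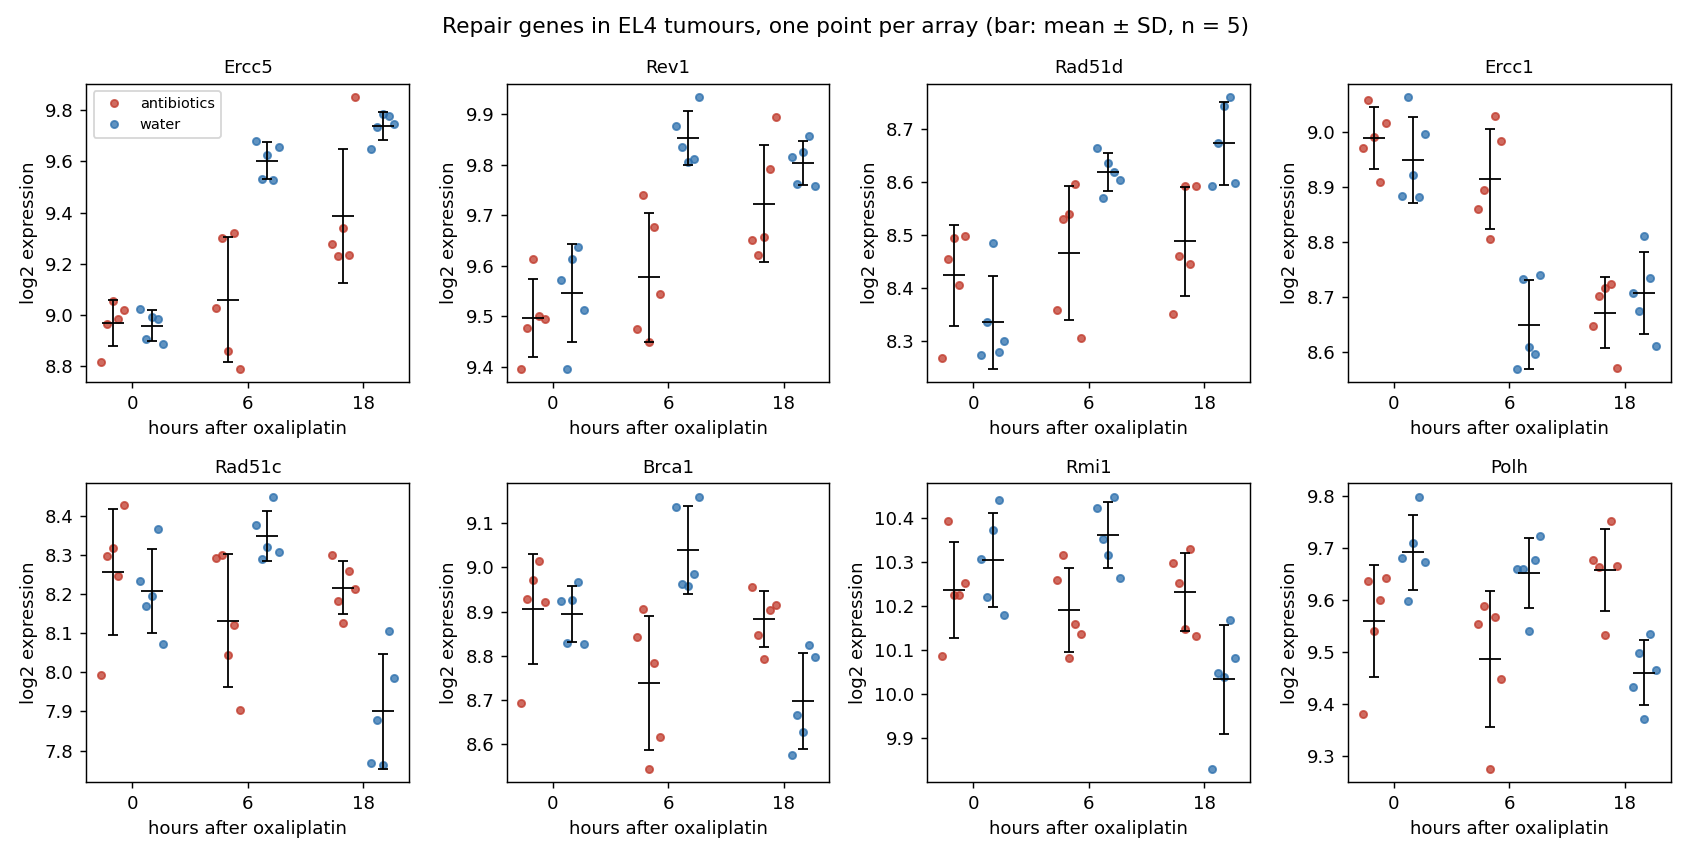
Log2 expression of 8 repair genes on each of the 30 arrays, by hours after oxaliplatin, with antibiotic arrays in red to the left of water arrays in blue. Points are arrays and black bars the mean ± SD of 5. Ercc5, Rev1 and Rad51d were above their 0 h arrays on every water array at 6 h, Ercc1 was below, and Rad51c, Brca1, Rmi1 and Polh were low on the water arrays at 18 h.

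At 18 h in water mice, 3 of the 43 repair genes were called higher than at 0 h and 8 lower, against 6.18% and 7.94% of all genes. The share of repair genes called higher was close to that of all genes, and the share called lower was larger. Ercc5, Rad51d and Rev1 were the 3 that rose. Those that fell were Ercc1, Ercc8, Polh, Rmi1, Rad51c, Exo1, Brca1 and Fancm, members of 5 of the 6 role groups. The median difference over the 43 genes was -0.05 log2, against 0.01 over all genes, and 16 genes had a positive difference. Host cell markers moved with this time: 2 of 8 macrophage markers (Lyz2 and Mpeg1), 2 of 7 fibroblast markers (Dcn and Mmp2) and 2 of 5 endothelial markers were higher. The macrophage mean ran from 0.13 to 0.48 at 18 h, against -0.15 to 0.31 at 0 h. Of 9 T cell markers, which can come from the EL4 cells themselves, 1 passed as higher, with 5 differences positive and 4 negative. The part of these markers in the repair genes' changes was not tested.

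Ercc5 read 9.65, 9.74, 9.78, 9.78 and 9.75 on the water arrays at 18 h, above all of the 0 h arrays given above. Its difference of 0.78 ± 0.096 log2, or 1.72-fold, was the largest of the 43 genes in either direction in this comparison (adjusted p = 3.13e-06). Rad51d read 8.59, 8.67, 8.74, 8.76 and 8.60 and Rev1 9.82, 9.76, 9.83, 9.86 and 9.76, and neither group overlapped its 0 h group. The differences were 0.34 ± 0.059 log2 for Rad51d (adjusted p = 0.000206) and 0.26 ± 0.058 for Rev1 (adjusted p = 0.00294). The fall of Ercc1 was still present, with 8.71, 8.67, 8.81, 8.74 and 8.61 at 18 h and a difference of -0.24 ± 0.050 log2 (adjusted p = 0.00124).

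Among the genes called lower at 18 h and not at 6 h, Rad51c, a recombination gene that acts in crosslink repair, read 7.77, 7.88, 7.76, 8.11 and 7.99 at 18 h, against 8.23, 8.17, 8.20, 8.37 and 8.07 at 0 h. Array 4 at 18 h lay within the range of the 0 h arrays and the other 4 were below it, with a difference of -0.31 ± 0.078 log2 (adjusted p = 0.00748). Ercc8, which recruits repair to stalled transcription, read 7.37, 7.44, 7.39, 7.59 and 7.48 at 18 h, against 7.69, 7.69, 7.87, 7.77 and 7.71 at 0 h. All arrays at 18 h were below those at 0 h, and it fell by 0.29 log2 (adjusted p = 0.00717). Rmi1, a partner of the Blm helicase, read 9.83, 10.05, 10.04, 10.17 and 10.08 at 18 h, against 10.31, 10.22, 10.37, 10.44 and 10.18 at 0 h. The groups did not overlap and the difference was -0.27 ± 0.064 log2 (adjusted p = 0.0041). Polh, the polymerase that copies past platinum and ultraviolet lesions, read 9.43, 9.50, 9.37, 9.54 and 9.47 at 18 h, against 9.68, 9.60, 9.71, 9.80 and 9.67 at 0 h. Every array at 18 h was below every array at 0 h, with a difference of -0.23 ± 0.058 log2 (adjusted p = 0.00645).

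Exo1, an exonuclease of mismatch repair and end resection, read 9.22, 9.27, 9.22, 9.31 and 9.13 at 18 h, against 9.40, 9.33, 9.51, 9.51 and 9.37 at 0 h. The groups were apart and it fell by 0.19 log2 (adjusted p = 0.0205), which did not pass without array 3 or 4 at 0 h or array 5 at 18 h (adjusted p = 0.0589, 0.0663 and 0.0594). Fancm, the translocase that brings the Fanconi anaemia core complex to stalled forks, read 8.08, 8.42, 8.32, 8.63 and 8.51 at 18 h, against 8.73, 8.63, 8.73, 8.82 and 8.54 at 0 h. Array 4 at 18 h lay within the 0 h range and the other 4 below it. The difference of -0.30 ± 0.095 log2 (adjusted p = 0.0335) held in 4 of the 10 fits without an array, with adjusted p-values from 0.0129 to 0.131. Brca1 differed by -0.20 ± 0.067 log2 (adjusted p = 0.0472). Of the mismatch repair genes, Pms2 had the smaller p and read 9.23, 9.28, 9.19, 9.22 and 9.23 at 18 h, against 9.23, 9.19, 9.21, 9.18 and 9.25 at 0 h. These overlapped and differed by 0.02 ± 0.050 log2 (adjusted p = 0.868).

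Set against 6 h rather than 0 h, the later time in water mice had 15 repair genes lower and 0 higher, whereas 6.46% of all genes were lower and 3.12% higher. The lower genes were 6 of 8 nucleases and helicases (Blm, Rmi1, Exo1, Nbn, Rad50 and Slx4), 4 of 9 recombination genes (Brca1, Brca2, Brip1 and Rad51c), 2 of 10 Fanconi anaemia genes (Fancb and Fancm), 2 of 3 translesion polymerases (Polh and Rev3l), 1 of 11 excision genes (Ercc8) and neither mismatch gene. With adjustment left off, 21 of the 43 had a p under 0.05, against 24.3% of all genes. The median difference was -0.10 log2 over the repair genes and 0.02 over all genes, and 33 of the 43 differences were negative. Other lists moved with this comparison: 2 of 8 macrophage markers (Cd68 and Lyz2), Mmp2 of 7 fibroblast markers, Eng of 5 endothelial markers and Cd3d of 9 T cell markers were higher at 18 h, and 5 of 19 proliferation genes were lower (Cdc6, Tyms, Rrm2, Mki67 and Mcm4). The macrophage mean ran from 0.13 to 0.48 at 18 h, against -0.19 to 0.15 at 6 h, and the proliferation mean from -0.14 to -0.04 at 18 h, against -0.01 to 0.06 at 6 h. Their part in the repair genes' changes was not tested.

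Rad51c showed the largest change, at 8.38, 8.29, 8.32, 8.45 and 8.31 on the 6 h arrays beside the 18 h values above. All of its 18 h arrays were below its 6 h arrays, and it fell by 0.45 log2 (SE 0.078, adjusted p = 0.000938). Brca1, which directs broken ends into recombination, read 8.58, 8.67, 8.63, 8.82 and 8.80 at 18 h, against 9.14, 8.96, 8.96, 8.98 and 9.16 at 6 h. No array at 18 h reached the 6 h range, and the difference was -0.34 ± 0.067 log2 (adjusted p = 0.00222). Its partner helicase Brip1 read 9.40, 9.43, 9.33, 9.61 and 9.53 at 18 h, against 9.79, 9.73, 9.66, 9.78 and 9.71 at 6 h. It fell by 0.27 log2 with no overlap (adjusted p = 0.00335). Blm, the helicase that dissolves joined chromatids, read 9.41, 9.66, 9.53, 9.53 and 9.64 at 18 h, against 9.83, 9.81, 9.84, 9.85 and 9.91 at 6 h. The difference was -0.30 ± 0.062 log2 (adjusted p = 0.004), and the groups were again apart.

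Rmi1 read 10.42, 10.35, 10.32, 10.45 and 10.26 at 6 h, above all of its 18 h arrays, and fell by 0.33 log2 (adjusted p = 0.00221). Rad50, which with Nbn tethers broken ends, read 10.02, 10.14, 10.06, 10.10 and 10.14 at 18 h, against 10.28, 10.29, 10.27, 10.33 and 10.28 at 6 h. Its 6 h arrays lay close together and above the 18 h ones, with a difference of -0.20 ± 0.042 log2 (adjusted p = 0.00438). The number of genes called depended on single arrays: it was 9 without array 4 or array 5 of the 6 h group or array 1 of the 18 h group, and 8 without array 3 of the 18 h group. The differences of the 6 genes with values here passed in each of those fits. Without the arrays with skin or muscle genes 10 were lower and 0 higher, and without these and array 3 of the antibiotic group at 6 h 15 were lower and 0 higher, with the same 6 genes among them both times.

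**Figure D2:**
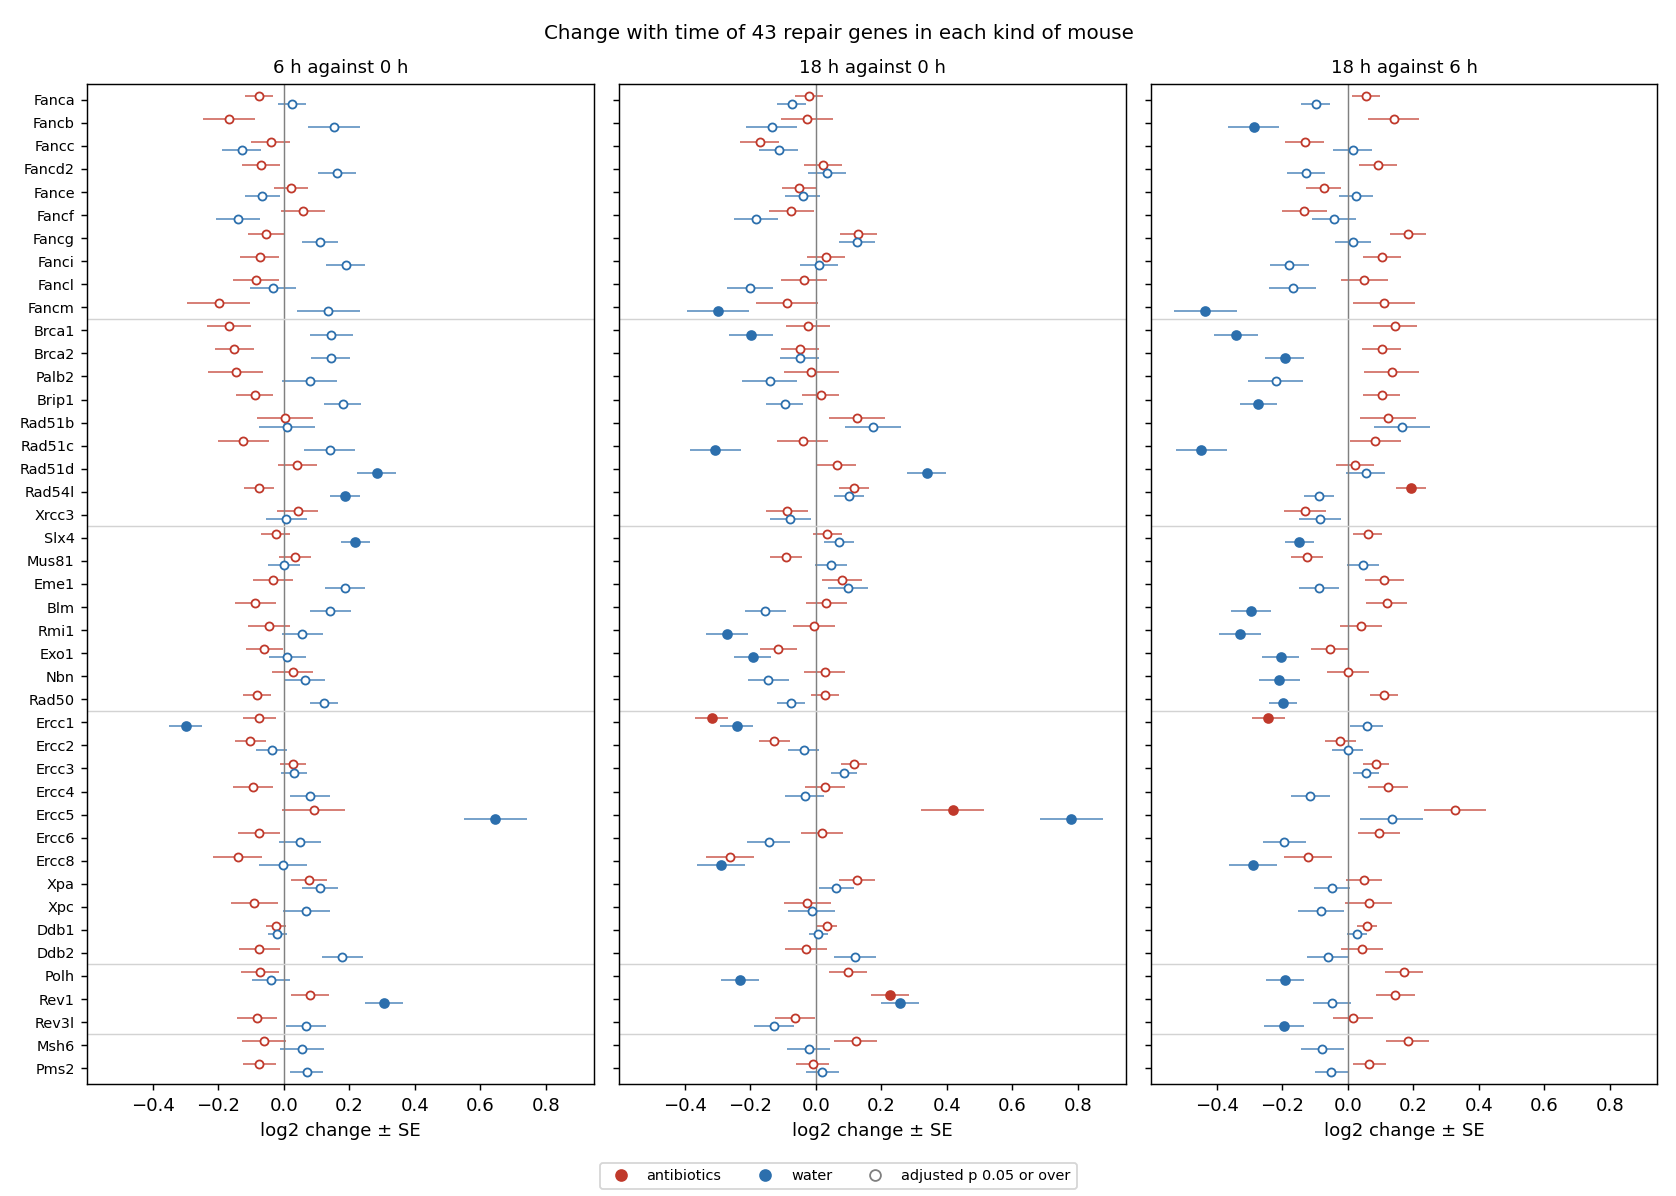
Log2 change of each of the 43 repair genes between times, with its standard error, in antibiotic mice (red, upper point of each pair) and water mice (blue), for 6 h against 0 h, 18 h against 0 h and 18 h against 6 h. Filled points passed at an adjusted p under 0.05, and grey lines part the role groups in the order Fanconi anaemia, recombination, nuclease and helicase, nucleotide excision, translesion and mismatch. At 18 h against 6 h, 15 filled blue points lie left of 0 and none right of it.

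In antibiotic mice, no repair gene was called at 6 h against 0 h, where 0% of all genes passed. The smallest adjusted p among the 43 was 0.384, and 5 had an unadjusted p under 0.05, against 10.1% of all genes, a share close to that of the 43. Without the arrays with skin or muscle genes, and without these and array 3, the count stayed at 0, and the smallest adjusted p was 0.219 and 0.214. At 18 h against 0 h, Ercc5 and Rev1 were higher and Ercc1 was lower, that is 2 and 1 of 43, against 0.316% and 0.908% of all genes. The same 3 genes had been called in those directions in water mice. The antibiotic and water groups are separate arrays at every time, so these comparisons share no control arrays.

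Ercc5 read 9.28, 9.23, 9.34, 9.23 and 9.85 on the antibiotic arrays at 18 h, against 8.82, 8.97, 9.05, 8.98 and 9.02 at 0 h. All 18 h arrays were above the 0 h arrays, and array 5 stood well above the other 4. The rise was 0.42 ± 0.096 log2, or 1.34-fold (adjusted p = 0.0218), and was 0.30 without array 5 (adjusted p = 0.0859). It also missed the threshold without array 1 or 2 at 0 h (adjusted p = 0.0581 and 0.0572). Rev1 read 9.65, 9.62, 9.66, 9.79 and 9.89 at 18 h, against 9.40, 9.48, 9.61, 9.50 and 9.49 at 0 h. The groups did not overlap, and the rise of 0.23 ± 0.058 log2 (adjusted p = 0.0481) held in 3 of the 10 fits without an array, with adjusted p-values from 0.0365 to 0.215. Ercc1 read 8.65, 8.70, 8.72, 8.72 and 8.57 at 18 h, against 8.97, 9.06, 8.99, 8.91 and 9.02 at 0 h. It fell by 0.32 log2 with no overlap (adjusted p = 0.000657), and passed in every one of the 10 fits.

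Between 6 and 18 h in antibiotic mice, 1 repair gene was higher, Rad54l, and 1 was lower, Ercc1, against 1.23% and 0.888% of all genes. Ercc1 read 8.86, 8.89, 8.81, 9.03 and 8.98 at 6 h, above all of its 18 h arrays, and the difference was -0.24 ± 0.050 log2 (adjusted p = 0.0132). In water mice the gene was called lower already at 6 h, but the test of the difference between the 2 courses at 6 h did not pass (0.22 ± 0.071 log2, adjusted p = 0.361). Rad54l read 10.07, 10.08, 10.13, 10.01 and 10.16 at 18 h, against 9.96, 10.05, 9.77, 9.90 and 9.83 at 6 h. Its groups overlapped, and the difference of 0.19 ± 0.046 log2 (adjusted p = 0.0266) passed in 5 of the 10 fits without an array. The count was 0 without array 5 of the 18 h group, where Ercc1 had an adjusted p of 0.0502, and 1 without array 3 or 4 of the 6 h group or array 2 or 3 of the 18 h group. It was 3 without the arrays with skin or muscle genes and 1, Ercc1, without these and array 3 of the 6 h group.

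Antibiotic and water tumours at 0 h did not differ in any repair gene by the test, where 0.0903% of all genes passed. The smallest adjusted p among the 43 was 0.634, for Brca2, with a difference of 0.15 ± 0.059 log2 and a 95% interval of 0.02 to 0.27. At an unadjusted p under 0.05 there were 3, close to the 6.61% of all genes. The differences of the 43 genes at 0 h ran from -0.13 to 0.18 log2.

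At 6 h after oxaliplatin, 10 repair genes were lower in antibiotic tumours than in water tumours and 1 was higher, whereas 2.64% of all genes were lower and 1.13% higher. Lower were Ercc5, Rad54l, Rev1, Brca1, Fancg, Eme1, Slx4, Fanci, Rad50 and Brip1, and Ercc1 was higher. The differences of 35 of the 43 were negative. Their median was -0.15 log2, against 0.01 over all genes, and 26 had an unadjusted p under 0.05, against 19.9% of all genes. Host cell markers moved with this comparison too: all 8 macrophage markers and all 7 fibroblast markers were lower in value in antibiotic tumours, with medians of -0.19 and -0.28 log2, but none passed. Of 9 T cell markers, which can come from the EL4 cells themselves, Cd3d was higher by 0.20 ± 0.050 log2 (adjusted p = 0.0275). The 9 split into 5 positive and 4 negative differences, with a median of 0.006 log2. The macrophage mean ran from -0.37 to 0.24 in antibiotic tumours and from -0.19 to 0.15 in water tumours. All 8 macrophage markers were already lower in value in antibiotic tumours at 0 h, with a median of -0.18 log2 and none passing. The 7 fibroblast markers split there into 5 positive and 2 negative differences. The part of these markers in the repair genes' differences was not tested.

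Ercc5 read 9.03, 9.30, 8.86, 9.32 and 8.79 on the antibiotic arrays at 6 h, all below the water arrays at that time given above. The difference was -0.54 ± 0.096 log2, a ratio of 0.686 (adjusted p = 0.00193). Arrays 2 and 4 of the antibiotic group were the high ones for Ercc5, and they were also the high ones for Mdm2, a p53 target, at 10.94 and 11.00, against 10.57 to 10.66 on arrays 1, 3 and 5. Arrays 1, 3 and 5 are those with skin genes, the narrow range and muscle genes, and the match was not tested. Rev1 read 9.47, 9.74, 9.45, 9.68 and 9.54 in antibiotic tumours, again below every water array, with a difference of -0.27 ± 0.058 log2 (adjusted p = 0.00879). Rad54l, at 9.96, 10.05, 9.77, 9.90 and 9.83 in antibiotic tumours, differed by -0.25 ± 0.046 log2 (adjusted p = 0.00237), without overlap. Brca1, at 8.84, 8.91, 8.54, 8.78 and 8.62 in antibiotic tumours, differed by -0.30 ± 0.067 log2 (adjusted p = 0.0122), also without overlap.

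Fancg, a subunit of the Fanconi anaemia core complex, read 8.87, 8.96, 8.80, 8.86 and 8.89 in antibiotic tumours at 6 h, against 9.15, 9.15, 9.14, 9.13 and 9.04 in water tumours. The groups were apart and the difference was -0.25 ± 0.056 log2 (adjusted p = 0.0134). Eme1, the partner of the nuclease Mus81, read 9.39, 9.44, 9.12, 9.44 and 9.14 in antibiotic tumours, against 9.58, 9.65, 9.52, 9.61 and 9.49 in water tumours. It was lower by 0.26 ± 0.061 log2 with no overlap (adjusted p = 0.0157), whereas Mus81 itself differed by 0.05 ± 0.049 (adjusted p = 0.606). Ercc1 was the single gene called higher in antibiotic tumours, where the values given above all exceeded those of water tumours, by 0.26 ± 0.050 log2 (adjusted p = 0.00366).

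These counts changed with how the spread was estimated and without array 3 of the antibiotic group, the one with the narrow range. Without it 3 genes were lower (Ercc5, Rad54l and Rev1) and Ercc1 was higher, while Brca1, Fancg and Eme1 had adjusted p-values of 0.0561, 0.0523 and 0.0686. With the 2 groups at 6 h fitted alone no repair gene passed. Without that array and the arrays with skin or muscle genes, Ercc1 alone passed, and Ercc5 differed by -0.27 log2 (adjusted p = 0.257). With the interquartile range of each array as a covariate, 5 genes were lower and 1 higher. The share of all genes called in these fits is not given here. The counts therefore do not show whether the repair genes or the whole array lost calls. The part of array quality and of skin or muscle in the differences at 6 h was not tested beyond these fits.

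**Figure D3:**
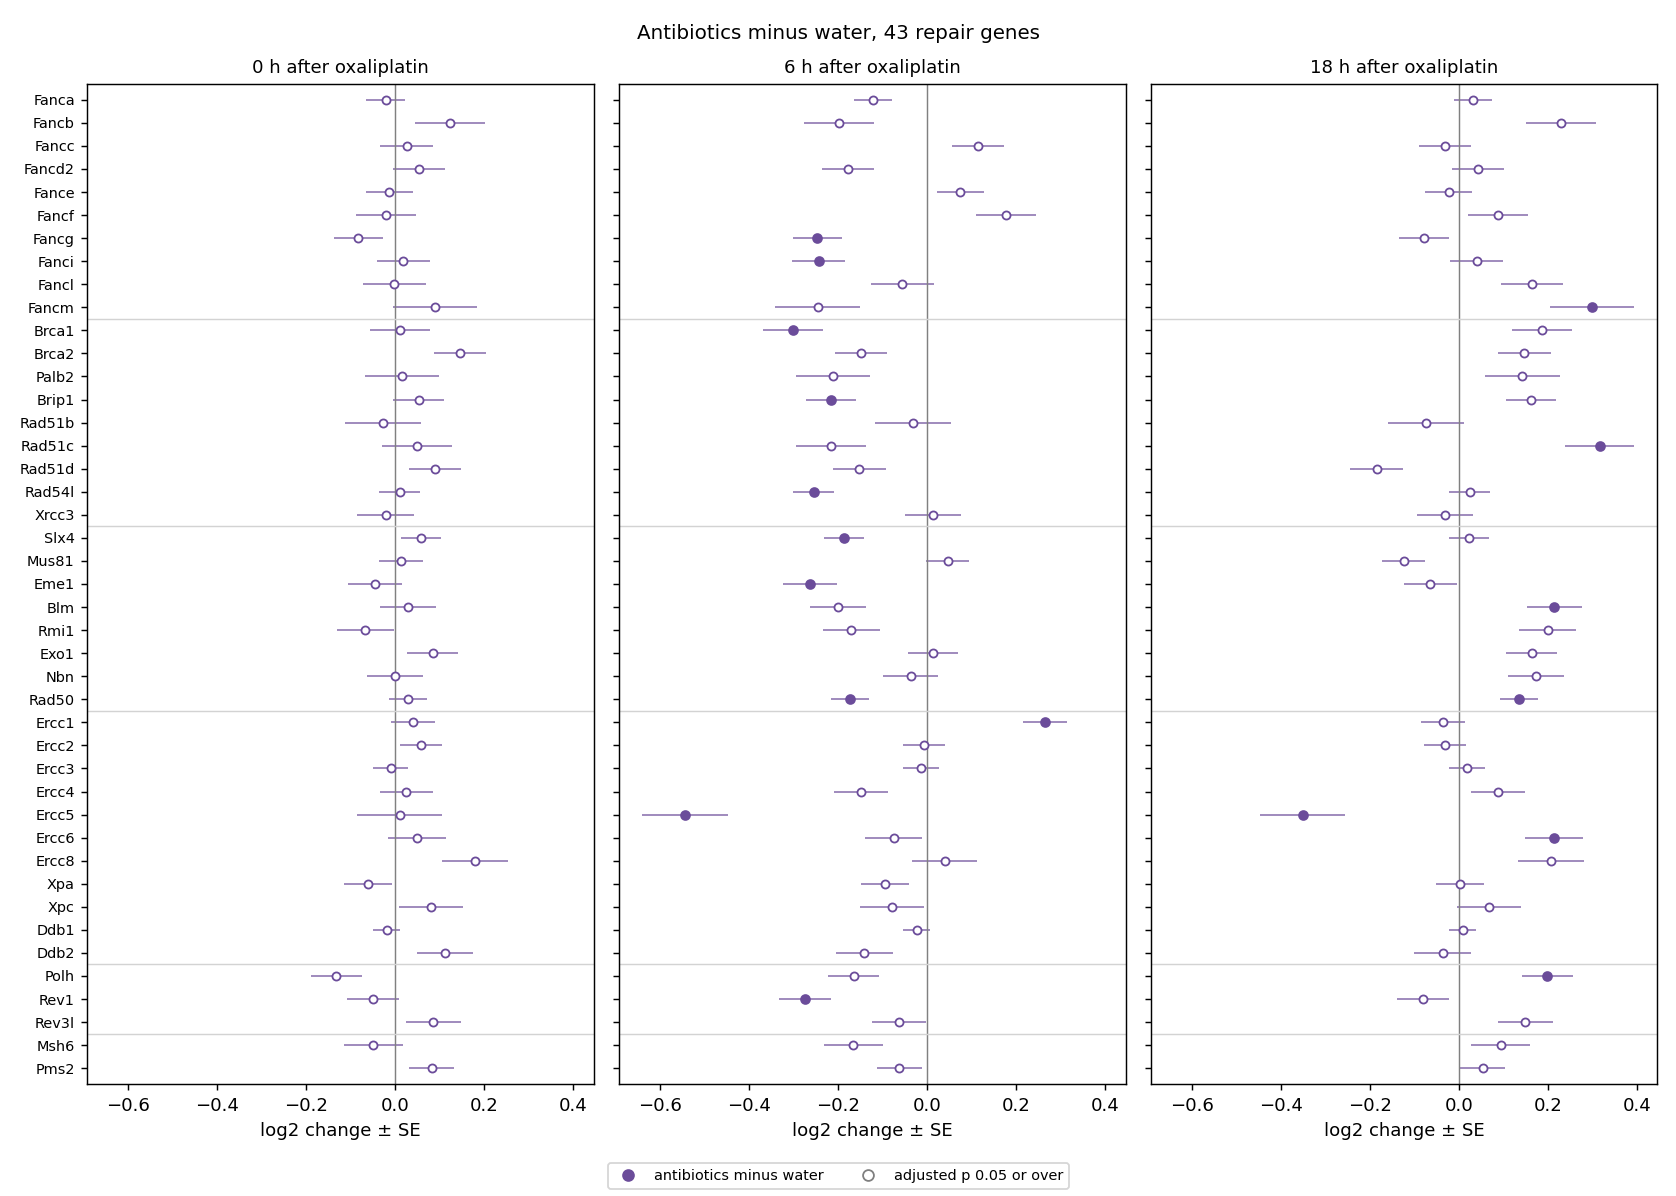
Difference in log2 expression, antibiotics minus water, with its standard error for each of the 43 repair genes at 0, 6 and 18 h after oxaliplatin. Filled points passed at an adjusted p under 0.05. No point is filled at 0 h, 10 filled points lie below 0 and 1 above it at 6 h, and 6 lie above 0 and 1 below it at 18 h.

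At 18 h the balance differed: 6 repair genes were higher in antibiotic tumours than in water tumours and 1 was lower, against 4.52% and 3.34% of all genes. Higher were Rad51c, Blm, Polh, Ercc6, Rad50 and Fancm, and Ercc5 was lower. The differences of 30 of the 43 genes were positive, with a median of 0.05 log2 against -0.01 over all genes, and 19 had an unadjusted p under 0.05, against 20.0% of all genes. Of the 6 higher genes, Rad51c, Blm, Polh, Rad50 and Fancm were among the 15 that fell between 6 and 18 h in water mice. These 2 comparisons share the water arrays at 18 h.

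Rad51c read 8.30, 8.18, 8.13, 8.26 and 8.21 in antibiotic tumours at 18 h, above all of the water arrays at that time. The difference was 0.32 ± 0.078 log2 (adjusted p = 0.0118), and it was the one gene of the 7 that passed under every alternative tried. Blm read 9.77, 9.78, 9.69, 9.87 and 9.72 in antibiotic tumours, again above every water array, with a difference of 0.21 ± 0.062 log2 (adjusted p = 0.0321). Polh read 9.68, 9.66, 9.53, 9.75 and 9.67 in antibiotic tumours and overlapped the water arrays by array 3 alone, with a difference of 0.20 ± 0.058 log2 (adjusted p = 0.0323). Ercc6, the remodeller that marks stalled transcription for repair, read 9.06, 8.90, 8.95, 9.00 and 8.96 in antibiotic tumours, against 8.57, 8.78, 8.65, 8.85 and 8.95 in water tumours. The groups overlapped through water array 5, and the difference was 0.21 ± 0.065 log2 (adjusted p = 0.0398).

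Rad50 read 10.22, 10.20, 10.20, 10.30 and 10.20 in antibiotic tumours, above the water arrays, with a difference of 0.13 ± 0.042 log2 (adjusted p = 0.0491). Fancm read 8.68, 8.67, 8.64, 8.77 and 8.69 in antibiotic tumours, also above the water arrays, with a difference of 0.30 ± 0.095 log2 (adjusted p = 0.0498). Both stood just inside the threshold. Ercc5 was lower in antibiotic tumours by 0.35 ± 0.096 log2 (adjusted p = 0.0216). In its antibiotic group arrays 1 to 4 were below every water array and array 5 was above them all. Without that array the difference was -0.47 log2 (adjusted p = 0.000442).

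The count of 7 also changed with single arrays. It was 1 without water array 3 or antibiotic array 1 or 4, and 2 without water array 1 or antibiotic array 2. Blm and Polh passed in 4 of the 10 fits without an array, Ercc6 in 3, Rad50 and Fancm in 2 and Ercc5 in 6. Host cell markers moved with this comparison: the mean of 8 macrophage markers ran from -0.46 to 0.12 in antibiotic tumours and from 0.13 to 0.48 in water tumours at 18 h, and 2 of the 8, Cd68 and C1qb, passed as lower in antibiotic tumours. Of 7 fibroblast markers Mmp2 passed as lower. Of 9 T cell markers, which can come from the EL4 cells themselves, Cd3d passed as lower and all 9 differences were negative. The part of these markers in the repair genes' differences was not tested.

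Averaged over the 3 times, 4 repair genes were lower in antibiotic tumours and 1 was higher, against 4.07% and 2.57% of all genes. In the same average 3 of 8 macrophage markers (Cd68, C1qb and Mpeg1), 2 of 9 T cell markers (Cd3e and Cd5) and Mmp2 of 7 fibroblast markers were lower, with Cd68 at -0.39 ± 0.059 log2 (adjusted p = 9.13e-05), and their part in the repair genes' averages was not tested. Ercc5 was lower by 0.30 ± 0.055 log2 (adjusted p = 0.00107), Fancg by 0.14 ± 0.032 (adjusted p = 0.00846), Rev1 by 0.13 ± 0.034 (adjusted p = 0.013) and Eme1 by 0.12 ± 0.035 (adjusted p = 0.0283). These averages reuse the arrays of the comparisons at single times and do not show a constant difference. At 0 h Ercc5 averaged 8.97 in antibiotic and 8.96 in water tumours, and Rev1 9.50 and 9.55. Fancg read 8.80, 8.93, 8.99, 8.89 and 9.04 in antibiotic tumours at 0 h, against 9.02, 8.92, 9.13, 9.04 and 8.95 in water tumours, and 9.05, 8.97, 9.06, 9.07 and 9.14 in antibiotic tumours at 18 h, against 9.35, 9.12, 9.16, 9.08 and 8.97 in water tumours. Its groups overlapped at both of those times. Eme1 read 9.26, 9.32, 9.40, 9.34 and 9.37 in antibiotic tumours at 0 h, against 9.34, 9.37, 9.52, 9.44 and 9.24 in water tumours, and 9.38, 9.34, 9.39, 9.41 and 9.56 in antibiotic tumours at 18 h, against 9.52, 9.46, 9.49, 9.54 and 9.41 in water tumours. They overlapped as well, and its average did not pass without water array 3 at 0 h or water array 2 at 6 h (adjusted p = 0.0504 and 0.0502). Without the arrays with skin or muscle genes and the narrow array, Ercc5 and Ercc8 kept their calls, while the averages of Fancg, Rev1 and Eme1 were -0.12, -0.089 and -0.079 log2 and did not pass (adjusted p = 0.0503, 0.13 and 0.151). With array medians subtracted, Rev1, Eme1 and Ercc8 did not pass (adjusted p = 0.0521, 0.087 and 0.0524).

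Ercc8 was the gene higher on average, by 0.14 ± 0.042 log2 (adjusted p = 0.0405). It read 7.69, 8.06, 7.95, 7.92 and 8.00 in antibiotic tumours at 0 h, 7.97, 7.92, 7.59, 7.83 and 7.60 in antibiotic tumours at 6 h, against 7.70, 7.81, 7.59, 7.78 and 7.84 in water tumours, and 7.71, 7.65, 7.56, 7.79 and 7.60 in antibiotic tumours at 18 h. With the water values at 0 and 18 h given above, the groups overlapped at each time, and the average passed in 13 of the 30 fits that left out an array. None of the 43 genes had a time course that differed by the test between antibiotic and water mice: 0% of all genes passed for the change from 0 to 6 h and 0.105% for the change from 0 to 18 h. At 6 h the smallest adjusted p of the 43 was 0.336, with 20 unadjusted p-values under 0.05, against 9.85% of all genes. For Ercc5 the change by 6 h was lower in antibiotic mice, at -0.55 ± 0.135 log2, with a 95% interval of -0.83 to -0.28 for the difference. Without the arrays with skin or muscle genes, and without these and the narrow array, no gene of the 43 passed at 6 h either, and Ercc5 was at -0.43 and -0.28 log2 (adjusted p = 0.273 and 0.75). At 18 h the smallest was 0.098, for Polh, whose change was 0.33 ± 0.082 log2 higher in antibiotic mice, and 6 had an unadjusted p under 0.05, against 9.49% of all genes. Polh already averaged 9.56 in antibiotic and 9.69 in water tumours at 0 h. That difference of -0.13 log2 was the lowest of the 43 at 0 h, and it enters the 0.33.

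The members that p53 is known to raise in human cells, Ddb2, Xpc and Polh, did not move as one. Ddb2, which finds distorted bases, differed by 0.18 ± 0.064 log2 at 6 h against 0 h in water mice (adjusted p = 0.224) and by 0.12 ± 0.064 at 18 h (adjusted p = 0.247). Xpc, its partner in recognition, differed by 0.07 ± 0.072 and -0.01 ± 0.072 log2 (adjusted p = 0.831 and 0.946). Polh differed by -0.04 ± 0.058 log2 at 6 h (adjusted p = 0.891) and was lower at 18 h, as given above. Of 18 p53 targets outside the set, read beside them, 9 were higher and 0 lower at 6 h in water mice, with a median of 0.34 log2. In that comparison 0.697% of all genes were higher. At 18 h 12 of these p53 targets were higher and 0 lower, with a median of 0.51, against 6.18% of all genes higher. In antibiotic tumours against water tumours, 7 of the 18 were lower and 0 higher at 6 h, where 2.64% of all genes were lower. At 18 h 7 were lower and 1 higher, against 3.34% and 4.52% of all genes. The p53 target mean at 6 h was -0.17, -0.22 and -0.17 on antibiotic arrays 1, 3 and 5, those with skin genes, the narrow range and muscle genes. It was 0.01 and 0.05 on arrays 2 and 4, and the part of array quality and of skin or muscle was not tested. Against 0 h in water mice, Mdm2 was higher by 0.58 ± 0.076 log2 at 6 h and 0.65 ± 0.076 at 18 h (adjusted p = 0.000342 and 1.77e-06).

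Many members passed in no comparison. Among the excision genes these were Ercc2, Ercc3, Ercc4, Xpa, Xpc, Ddb1 and Ddb2, and among the Fanconi anaemia genes Fanca, Fancc, Fancd2, Fance, Fancf and Fancl. Palb2, Rad51b, Xrcc3, Mus81, Msh6 and Pms2 completed the list of 19. Ddb1 varied least, from 11.31 to 11.46 over the 30 arrays, and its difference at 18 h against 0 h in water mice was 0.01 ± 0.030 log2 with a 95% interval of -0.05 to 0.07. For Fancd2, the protein that is modified at crosslinks, the same interval was -0.08 to 0.15, and for Xpa it was -0.05 to 0.17. Fancd2 ran from 9.74 to 9.84 on the water arrays at 6 h, above 9.55 to 9.72 at 0 h and 9.59 to 9.73 at 18 h. Neither of these differences passed.

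Repair genes outside the set were read from companion lists chosen by function. At 18 h against 0 h in water mice, 6.18% of all genes were higher and 7.94% lower, and the counts here are to be read beside these shares. In this comparison 1 of 13 other crosslink repair genes was higher and 5 were lower. The nuclease Fan1 was the higher one, at 0.22 ± 0.063 log2, and the deubiquitinase Usp1, which resets Fancd2, was at -0.26 ± 0.056. Of 20 other recombination genes 7 were lower and 0 higher, among them Rad51ap1 (-0.26 ± 0.065 log2) and Rad54b (-0.24 ± 0.055). Of 15 other excision genes 2 were lower, Rad23b (-0.19 ± 0.033 log2) and Lig3 (-0.42 ± 0.059). Of 10 other translesion genes 3 were lower and Polk was higher, by 0.47 ± 0.086 log2 (adjusted p = 0.000392), after 0.47 ± 0.086 at 6 h. Of 3 other mismatch genes Pms1 was lower, by 0.25 ± 0.073 log2. The medians of these 5 lists were -0.09, -0.12, -0.06, -0.10 and -0.10 log2 in that order, against 0.01 over all genes.

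Between antibiotic and water tumours, Polk was lower at 6 h by 0.42 ± 0.086 log2 (adjusted p = 0.00658). At 18 h, Lig3 was higher in antibiotic tumours by 0.37 ± 0.059 log2 and Rad51ap1 by 0.30 ± 0.065 (adjusted p = 0.000544 and 0.00573). Proliferation genes were counted beside the repair genes that are expressed with the cell cycle. Of 19 such genes, 6 were lower and 0 higher at 18 h against 0 h in water mice, with Mki67 at -0.19 ± 0.040 log2, where 7.94% of all genes were lower. In antibiotic tumours against water tumours at 18 h, 4 were higher and 0 lower, where 4.52% of all genes were higher. The mean of the 19 ran from -0.02 to 0.07 in antibiotic tumours and from -0.14 to -0.04 in water tumours at 18 h. The part of proliferation in the repair genes' changes was not tested.

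**Figure D4:**
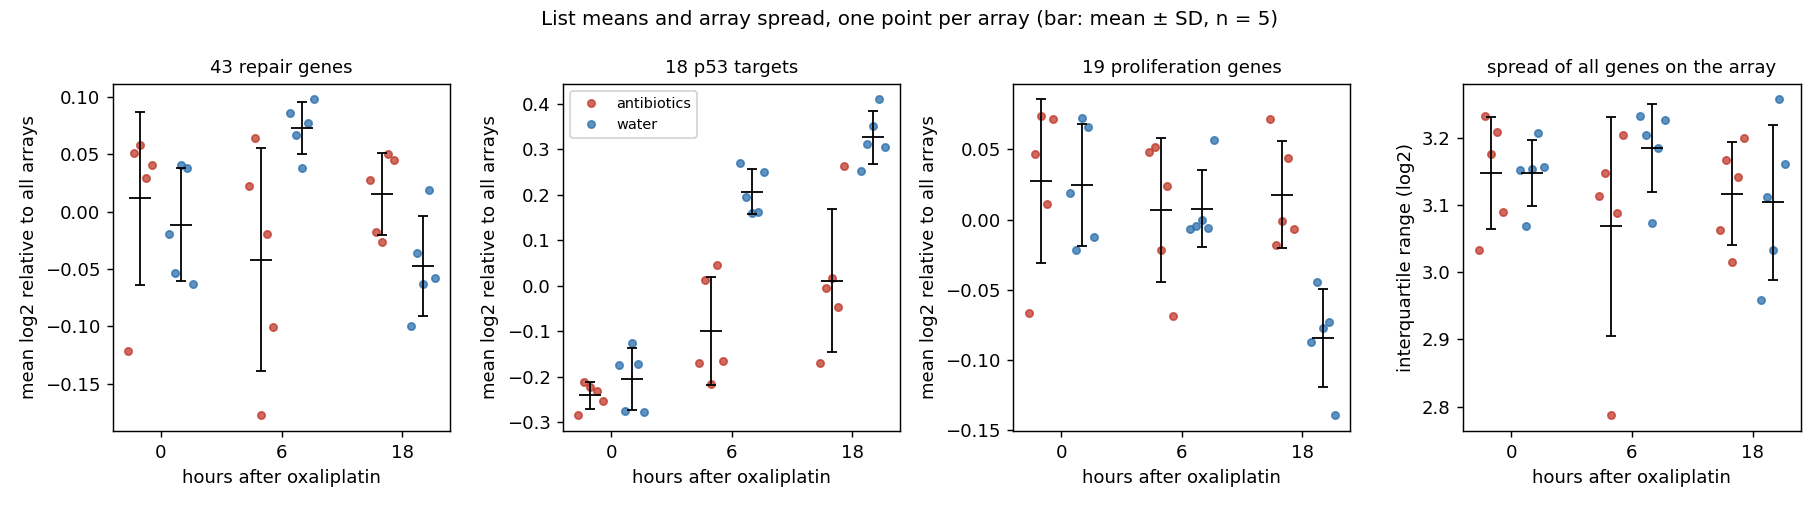
Mean of the 43 repair genes, of 18 p53 targets and of 19 proliferation genes on each array, each gene taken relative to its mean over the 30 arrays in log2, and the interquartile range of all genes on the array, by hours after oxaliplatin with antibiotic arrays in red to the left of water arrays in blue. Black bars are the mean ± SD of 5 arrays. The repair genes averaged -0.04 in antibiotic tumours and 0.07 in water tumours at 6 h, and 0.02 in antibiotic tumours and -0.05 in water tumours at 18 h, and the lowest array range, 2.79, belongs to the antibiotic group at 6 h.

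RefSeq promoters were matched for 34 of the 43 genes, by symbol, as 38 start sites. The words searched, on both strands, were TTTCCCGC, TTTGGCGC, TTTGCCGC and TTTCGCGC for E2F, TTTGAA for the CHR, CCAAT for NF-Y and the half-site of p53 by its consensus with no mismatch. An E2F word was found in 5 of the 34 genes, or 14.7%, against 2.6% of 27025 genes with a promoter. The 5 were Fancg, Brca2, Rad51c, Rmi1 and Msh6. A gene was counted if any of its start sites held the word, and 1 Rmi1 start site held none. CCAAT was in 22 genes, or 64.7%, against 41.1% of all. TTTGAA was in 3, or 8.8%, against 20.2%, and a p53 half-site in 3, or 8.8%, against 9.6%. Of the 11 genes with a promoter that fell between 6 and 18 h in water mice, 3 held an E2F word, 8 held CCAAT, 0 held TTTGAA and 1 held a p53 half-site.

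In the printed sequences, the Ercc5 promoter holds CCAAT with its first base at -195 and TTCAAA, the CHR word on the other strand, at -141 relative to the start. Rad51c holds the E2F word GCGGGAAA at -5 in the window shown, and Rmi1 TTTGGCGC at 27. At 36 the Rmi1 window also holds ATTGG, which is the NF-Y word on the other strand. The window at the other Rmi1 start, not printed, holds ATTGG at -81 and -40 and no E2F word. The unprinted Rad51c window holds the E2F word TTTCGCGC at 12. Brca1 holds CCAAT at -86. The Ercc1 window holds none of the words. These are matches of letters in windows of 300 bases and not tested sites.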

How the data were processed

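RNA of 30 EL4 tumours was hybridised to an Affymetrix mouse gene array, 5 arrays in each of 6 groups taken from the labels. The deposited values are log2 expression, 1 column per array with 28853 rows. Partek 6.6 is named in the submitters' processing notes, and the summarisation and normalisation are not given in the sources used here. The number of arrays limits the precision. No column was left unused.

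Of the rows, 21775 carried 1 gene symbol in the platform annotation, 1578 several and 5500 none. The row with the highest mean stood for each symbol, which gave 19938 genes. Nbn had 2 rows. A model of 6 group means over 30 arrays was fitted with limma 3.58.1 in R 4.3.3, with 12 contrasts, 24 residual degrees of freedom and Benjamini-Hochberg adjustment over all genes within a contrast. The fit was tested on simulated data. A list mean is the mean over its genes of each value minus the gene's mean over the 30 arrays.

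The 44 symbols and the companion lists (110 symbols, 98 found, cell type markers apart) were chosen with earlier results of these data known. Every-array values are printed for the genes with the smallest p among those that passed in each comparison, up to 6 in each direction, and for the gene of each role group with the smallest p at 18 h against 0 h in water mice. From each companion list up to 5 genes in each direction could be named, plus Mdm2 and Mki67. The alternatives tried were other scalings, filters, fits and arrays left out. The skin, muscle and narrow arrays and the covariate of array spread were chosen after seeing the data. The 2 arrays with skin genes, the array with muscle genes and the narrow array are named in the text.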

Additional observations from a re-analysis of the deposited data

Results flagged for a closer look

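Of 258 groups of 5 arrays, 6 for each of the 43 repair genes, 14 held an array that stood far from the other 4, by a gap to the nearest array of more than 0.71 of the whole range. Chance alone flags about 1 in 20 such groups. Array 1 of the antibiotic group at 0 h was the low one for Fancd2 (9.49, nearest array 9.71), Fanci (8.34, nearest array 8.59), Brca2 (9.21, nearest array 9.36), Blm (9.59, nearest array 9.75) and Exo1 (9.32, nearest array 9.53). Array 3 of the antibiotic group at 6 h, the one with the narrow range of values, was the low one for Ercc2 (9.12, nearest 9.28) and for Ercc4 (8.03, nearest 8.41). In the antibiotic group at 18 h, array 5 was high for Ercc5 (9.85, nearest 9.34) and Rad51b (8.45, nearest 8.22), and array 4 was high for Rad50 (10.30, nearest 10.22). Nbn was low on array 5 of the antibiotic group at 0 h (7.55, nearest 7.73). In the water groups, Fancg was low on array 5 at 6 h (9.04, nearest 9.13), Ercc4 was high on array 1 at 6 h (8.63, nearest 8.51) and Fancl was high on array 4 at 0 h (8.49, nearest 8.35). The cause of these values was not tested.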

How the results depend on the processing

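The 47 named changes were recomputed as 1082 alternative values: 936 kept direction and side of the threshold, 146 kept direction but no longer passed, and 0 reversed. Here and in the text above, counts under alternatives are given without the share of all genes called in the same fit. They therefore do not show whether the repair genes or the whole array gained or lost calls. Counts of repair genes called moved by over 1.5 times as follows. With array medians subtracted, antibiotics against water gave 2 at 18 h and 2 averaged, and 18 h against 6 h in antibiotic mice gave 1. Quantile normalisation gave 13 at 18 h, 8 averaged and 1 for the difference between courses at 18 h. Array weights gave 14 for antibiotics against water at 18 h, 13 for 6 h against 0 h in water mice, 5 and 1 for 18 h against 0 h and against 6 h in antibiotic mice, and 2 for the difference between courses at 18 h. With only the groups compared, antibiotics against water gave 0 at 6 h and 1 at 18 h, and 18 h gave 1 against 0 h and 0 against 6 h in antibiotic mice. Without the skin, muscle and narrow arrays, antibiotics against water gave 1 at 6 h, 12 at 18 h and 3 averaged, and 18 h against 6 h in antibiotic mice gave 1. With array spread as a covariate, antibiotics against water gave 6 at 6 h and 15 at 18 h, and the difference between courses at 18 h gave 1. Leaving out 1 array gave 4 to 13 for antibiotics against water at 6 h, 1 to 8 at 18 h, 0 to 0 at 0 h and 4 to 6 averaged. In water mice it gave 5 to 6 for 6 h against 0 h, 8 to 12 for 18 h against 0 h and 8 to 17 for 18 h against 6 h. In antibiotic mice it gave 0 to 0, 1 to 3 and 0 to 3 in that order, with 1 for 18 h against 0 h without array 2 at 0 h or array 5 at 18 h. The difference between courses gave 0 to 0 at 6 h and 0 to 1 at 18 h, the 1 without antibiotic array 5 at 18 h. Beyond these constructions the cause was not tested. No paired analysis was possible because array numbers pair no samples.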
